A study of Mus musculus with 768 samples.

Results

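The 9 genes described here encode the subunits of A-type potassium channels and the proteins bound to them: Kcnd2, Kcnd3, Kcna4, Kcnip1, Kcnip2, Kcnip3, Kcnip4, Dpp6 and Dpp10. They were taken by name from a table of 24489 genes counted in single nuclei of mouse striatum, and all 9 were in it. The nuclei came from untreated C57BL/6 mice of 2 genotypes, Oprm1-Cre:H2BG and Slc32a1-Cre:H2BG, on 1 plate each of equal size, 768 wells in all. The series' design text says that the first was used to include patch neurons and the second GABAergic neurons. Oprm1 is the mu opioid receptor gene, which marks striatal patches, and Slc32a1 encodes the vesicular GABA transporter. The animals, their age and the sorting of the nuclei are not described in the labels. With 1 plate per genotype there was no replicate check of any difference, and no test was made from nuclei.

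A-type current is a potassium current that switches on below the spike threshold and then inactivates quickly, so that it delays firing and dampens signals that travel back into dendrites. Its pore is built from Kv4 subunits, such as Kv4.2 (Kcnd2) and Kv4.3 (Kcnd3), or from the Kv1 family member Kv1.4 (Kcna4). Kv4 pores bind KChIPs (Kcnip1 to Kcnip4), small calcium sensors that raise surface expression and alter inactivation, and DPP-like single-pass membrane proteins (Dpp6, Dpp10) that speed the gating. Spiny projection neurons (SPNs), the output neurons of the striatum, carry a prominent A-type current. They come as direct pathway neurons with the D1 dopamine receptor and indirect pathway neurons with the D2 receptor, and both lie in patches and in the surrounding matrix.

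The stretches that form the pore and bind calcium are shown first, because they define the channel subunits and the KChIPs as families. They were read from the longest coding transcripts of GENCODE M21 (GRCm38) and run 5′ to 3′ on the coding strand. In the pore genes, capitals mark the codons of the potassium selectivity filter. The Kcnd2 stretch lies within chr6:21217382-21714171 on the plus strand, across an exon junction. The Kcna4 stretch lies in 1 exon at chr2:107296471-107296539 on the plus strand.
Kcnd2: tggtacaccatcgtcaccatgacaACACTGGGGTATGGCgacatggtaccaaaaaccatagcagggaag
Kcna4: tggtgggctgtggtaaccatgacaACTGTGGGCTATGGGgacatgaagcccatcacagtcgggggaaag
Of these 69 bases, 46 were identical between Kcnd2 and Kcna4. In the KChIP genes, capitals mark the start of an EF-hand calcium-binding loop. All of these stretches lie across an exon junction on the minus strand, within chr11:33633166-33634596 (Kcnip1), chr19:45794019-45794216 (Kcnip2), chr2:127459348-127460000 (Kcnip3) and chr5:48396023-48396668 (Kcnip4).
Kcnip1: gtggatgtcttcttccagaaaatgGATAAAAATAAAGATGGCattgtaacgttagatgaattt
Kcnip2: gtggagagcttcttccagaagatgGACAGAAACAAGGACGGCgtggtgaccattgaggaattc
Kcnip3: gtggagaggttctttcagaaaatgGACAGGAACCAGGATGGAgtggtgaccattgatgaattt
Kcnip4: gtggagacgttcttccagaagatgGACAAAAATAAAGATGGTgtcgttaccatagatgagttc
Between 45 and 54 of these 63 bases were identical in each pair of KChIP genes. The longest identical run between the coding sequences was 19 bases for any pair of KChIP genes, 23 for Kcnd2 and Kcnd3, and 20 for Dpp6 and Dpp10.

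In GRCm38 the genes lie at chr6:21215503-21729805 (Kcnd2), chr3:105452330-105674002 (Kcnd3), chr2:107290639-107298502 (Kcna4), chr11:33629339-33993152 (Kcnip1), chr19:45791839-45816061 (Kcnip2), chr2:127456498-127522094 (Kcnip3), chr5:48389502-49524907 (Kcnip4), chr5:26817203-27727505 (Dpp6) and chr1:123321471-124045559 (Dpp10). Exons of Kcnd3 overlap those of Kcnd3os, and exons of Kcnip4 overlap those of 5730480H06Rik and, over 99 bases, Gm20700, all on the opposite strand. Whether the counting used strand is not stated, so reads there cannot be told apart.

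After filtering, 736 nuclei were kept and 29 Oprm1-Cre and 3 Slc32a1-Cre wells were left out. Median depths were 169398 (range 22727 to 581313) and 175337 (34513 to 487842) reads on genes. Of the kept Oprm1-Cre nuclei 84.5% were D1-like (300 nuclei), with 24 D2-like, 18 undecided and 13 interneuron-like nuclei. Of the kept Slc32a1-Cre nuclei 51.2% were D1-like and 39.1% D2-like, with 21 undecided and 16 interneuron-like nuclei. The classes carried the markers that were used to form them, given as a description: Drd2 was at 545 and 605 counts per 1000000 reads (CPM) in D2-like nuclei of the Oprm1-Cre and Slc32a1-Cre plates and at 5.15 and 7.06 CPM in D1-like nuclei. A leaning score, the mean log2(CPM + 1) over 9 patch genes less the mean over 7 matrix genes with no member among them, called nuclei above 0 patch-leaning and below 0 matrix-leaning. Patch-leaning D1-like nuclei made up 53.2% of the kept Oprm1-Cre nuclei, and 3 D2-like nuclei of that plate were patch-leaning. On the Slc32a1-Cre plate 26 D1-like and 9 D2-like nuclei were patch-leaning. The scores of 41 Oprm1-Cre and 13 Slc32a1-Cre D1-like nuclei lay within 0.5 of the limit. Reads of 4 Y-linked genes were present in 90.99% of Oprm1-Cre and 0% of Slc32a1-Cre nuclei, so plate, genotype, animals and their sex cannot be told apart. Summed oligodendrocyte markers were at 306.5 and 266.6 CPM in D1-like and 130.4 and 246.4 CPM in D2-like nuclei, and their part in the values was not tested.

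In SPNs Kcnip2, Kcnd2, Kcna4 and Dpp6 were the members with reads in most nuclei of both types. Per exonic length Dpp6 was below Kcnip3 in every SPN group. Kcnip2, a KChIP of striatal and cardiac A-type channels, was the most abundant member per length in every SPN group. Pooled over nuclei, it stood at 203.7, 232.3, 137.7 and 124.2 CPM per exonic kilobase in Oprm1-Cre D1-like, Oprm1-Cre D2-like, Slc32a1-Cre D1-like and Slc32a1-Cre D2-like nuclei. Kcnd2 followed with 70.5, 61.3, 89.7 and 80.7 CPM per exonic kilobase in the same order, and Kcna4 with 63.6, 55.98, 78.8 and 67.2. Kcnd2 was above Kcna4 within each group, although their ranges over the groups overlapped. Kcnip3 ranged from 26.6 to 35.3 CPM per exonic kilobase over the SPN groups, Kcnip4 from 11.6 to 20.7 and Dpp6 from 15.8 to 19.2, and the order of the last pair was not the same in every group. Dpp10 ranged from 1.14 to 3.65 and Kcnd3 from 1.22 to 3.84, overlapping as well.

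**Figure D1:**
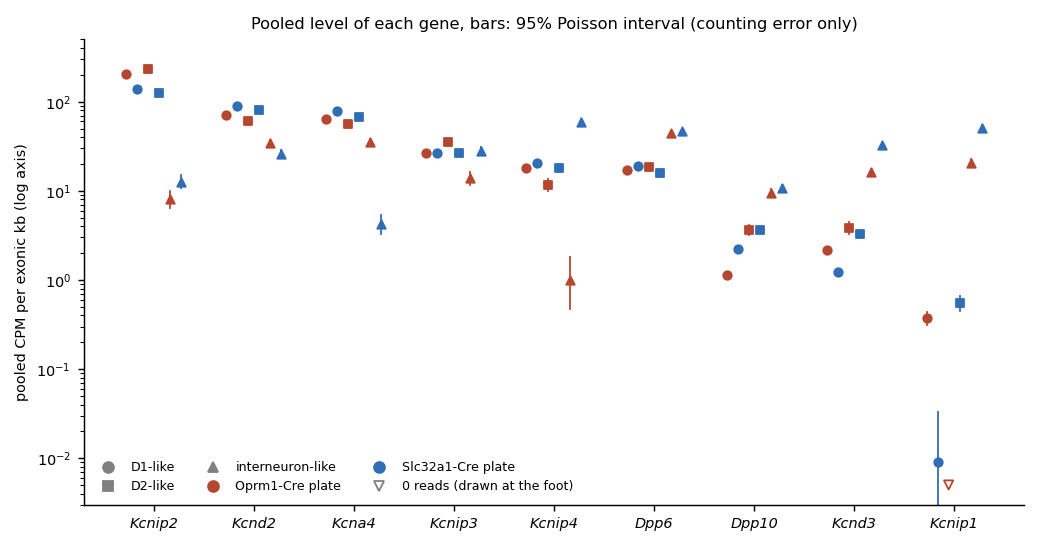
Pooled CPM per exonic kilobase (log axis) of the 9 genes in D1-like (circles), D2-like (squares) and interneuron-like (triangles) nuclei of the Oprm1-Cre plate (red) and the Slc32a1-Cre plate (blue), with bars for the exact Poisson 95% interval, which covers counting error only. Kcnip2 stands highest in the SPN groups at 124.2 to 232.3.

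Kcnip2 had reads in 96.3% (93.5 to 98.2) of Oprm1-Cre and 91.8% (87.02 to 95.2) of Slc32a1-Cre D1-like nuclei, with exact Clopper-Pearson 95% intervals in brackets here and below. These intervals take the nuclei of a plate as separate draws and leave out differences between animals. Whether they overlap is a description and no test. In D2-like nuclei the Kcnip2 shares were 95.8% (78.9 to 99.9) and 83.9% (76.99 to 89.4). Single D1-like nuclei ranged from 0 to 3116 CPM with a median of 654 CPM on the Oprm1-Cre plate, and from 0 to 1873 CPM with a median of 383.4 CPM on the Slc32a1-Cre plate. The Oprm1-Cre median was the higher, but the ranges overlapped over most of their length.

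Kcnd2 was the leading Kv4 pore gene of SPNs. It had reads in 82.3% (77.5 to 86.5) and 88.7% (83.4 to 92.8) of D1-like nuclei of the Oprm1-Cre and Slc32a1-Cre plates, and in 83.3% (62.6 to 95.3) and 74.5% (66.7 to 81.3) of D2-like nuclei. Single D1-like nuclei ranged from 0 to 3678 CPM (median 206.5) and from 0 to 3243 CPM (median 325.8). Its paralogue Kcnd3 had reads in 11.3% (7.98 to 15.5) and 10.3% (6.38 to 15.4) of D1-like nuclei and was at 0 in the median nucleus of every SPN group. Per exonic kilobase, Kcnd2 was the higher Kv4 gene in 80.7% (75.7 to 84.98) and 88.2% (82.8 to 92.4) of D1-like nuclei, and Kcnd3 in 3.33% (1.61 to 6.04) and 1.54% (0.318 to 4.43). The rest had no read of either gene.

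Kcna4, the Kv1 pore gene whose protein carries its own inactivation ball, had reads in 74% (68.6 to 78.9) and 76.4% (69.8 to 82.2) of D1-like nuclei, at medians of 161.7 and 245.6 CPM and maxima of 2949 and 2559 CPM. Kcnd2 and Kcna4 were read together in 62% (56.2 to 67.5) and 68.2% (61.2 to 74.7) of D1-like nuclei, so most of these nuclei had reads of both kinds of pore gene. The DPP-like gene Dpp6 had reads in 75% (69.7 to 79.8) and 70.3% (63.3 to 76.6) of them, at medians of 105.02 and 115.9 CPM.

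Kcnd2, Kcnip2 and Dpp6, 1 gene each for the pore, the KChIP and the DPP-like partner, were read together in 61.7% (55.9 to 67.2) and 56.4% (49.1 to 63.5) of D1-like nuclei of the Oprm1-Cre and Slc32a1-Cre plates. In D2-like nuclei the shares were 62.5% (40.6 to 81.2) and 42.3% (34.2 to 50.6). After thinning each nucleus to 50000 reads, the D1-like shares were 52.7% and 50%. By contrast, only 1 of 13 and 1 of 16 interneuron-like nuclei had reads of all 3 genes.

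The KChIP genes were unequal among SPNs. Kcnip2 was the highest KChIP gene per exonic kilobase in 85.3% (80.8 to 89.1) and 74.9% (68.2 to 80.8) of D1-like nuclei of the Oprm1-Cre and Slc32a1-Cre plates, and in 87.5% (67.6 to 97.3) and 65.8% (57.6 to 73.3) of D2-like nuclei. Kcnip3, also known as calsenilin or DREAM and a transcriptional repressor as well as a channel partner, led in 8.0% and 12.8% of D1-like nuclei and had reads in 40.7% (35.1 to 46.5) and 46.2% (39.01 to 53.4). Kcnip4 led in 5.33% and 9.74% and had reads in 37.7% (32.2 to 43.4) and 43.1% (36.02 to 50.3). Kcnip1 had reads in only 1.0% (0.207 to 2.89) and 1.03% (0.124 to 3.66), and 1 nucleus held 98.4% of its Oprm1-Cre D1-like reads.

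**Figure D2:**
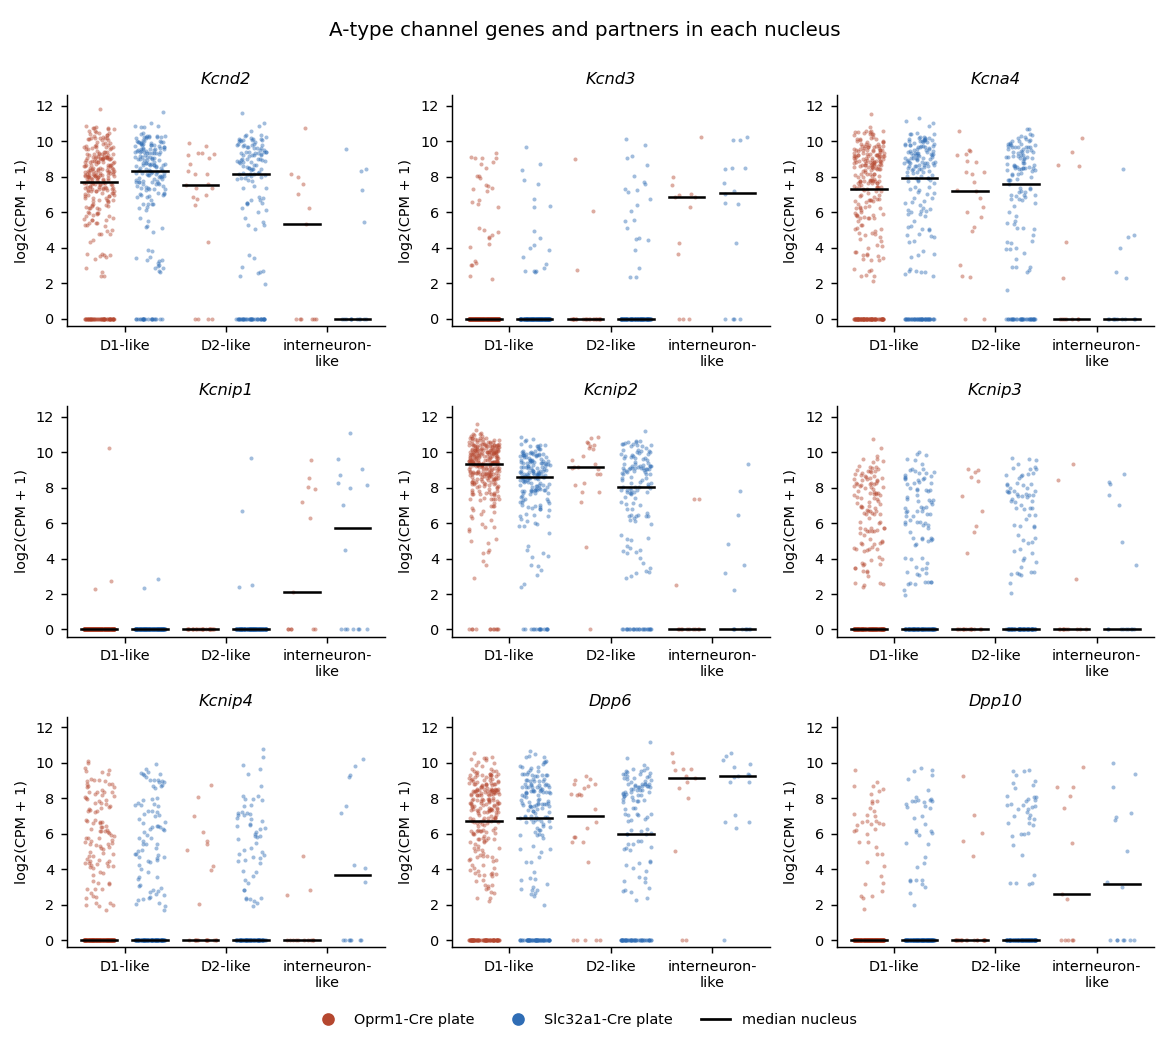
Level of each gene in every D1-like, D2-like and interneuron-like nucleus, as log2(CPM + 1), with 1 point per nucleus, the Oprm1-Cre plate in red, the Slc32a1-Cre plate in blue and black lines at the median nucleus. Kcnip2, Kcnd2, Kcna4 and Dpp6 have medians above 0 in the SPN groups, and Kcnip1 has reads in 13 and 16 kept nuclei of the Oprm1-Cre and Slc32a1-Cre plates.

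Interneuron-like nuclei carried another set of subunits. Pooled over these nuclei, Kcnd3, Kcnip1, Dpp6 and Dpp10 were higher than in SPN-like nuclei of the same plate, and Kcnd2, Kcna4 and Kcnip2 were lower, on both plates. In the smaller interneuron-like cluster described below, Kcnd2 and Dpp6 were near the SPN-like levels. Log2 ratios were taken between pooled CPM with 5 CPM added, a gene counted as measured with at least 5 CPM in either group, and a ratio beyond 0.5 in size counted as past the limit. All 9 members were measured. On the Slc32a1-Cre plate 5 were higher and 3 lower past the limit, against 67.2% of all measured genes (30.5% higher and 36.7% lower). On the Oprm1-Cre plate 4 were higher and 5 lower, against 71.4% of all measured genes (30.8% higher and 40.6% lower). Most of all measured genes passed this limit on both plates, so the count of members is not a result about them.

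Kcnd3, Kcnip1 and Dpp10 were also among the 2000 variable genes that formed the clusters, so their contrast is not independent of the classes. When each nucleus was instead classed alone from marker scores, their log2 ratios were 3.44, 5.54 and 1.67 on the Slc32a1-Cre plate and 2.35, 4.17 and 3.02 on the Oprm1-Cre plate, the same direction as below.

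Kcnip1 had the highest ratio of the members, at percentiles of 99.9 and 99.4 among measured genes. It was at 315.9 CPM (297.2 to 335.4) in interneuron-like and 1.51 CPM in SPN-like nuclei of the Slc32a1-Cre plate, a log2 ratio of 5.62, and at 126.5 CPM (113.6 to 140.4) and 2.6 CPM on the Oprm1-Cre plate, a log2 ratio of 4.11. Single interneuron-like nuclei ranged from 0 to 2125 CPM (median 74.04) and from 0 to 763 CPM (median 3.25). Interneuron-like nuclei held 91.1% and 68.6% of all Kcnip1 reads of the plates, although only 9 of 16 and 7 of 13 of them had a read.

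Kcnip2 had the opposite distribution. It was at 44.1 CPM (37.3 to 51.8) in interneuron-like and 449 CPM in SPN-like nuclei of the Slc32a1-Cre plate, a log2 ratio of -3.21, and at 28.04 CPM (22.2 to 34.99) and 704 CPM on the Oprm1-Cre plate, a log2 ratio of -4.42. The median interneuron-like nucleus had 0 CPM on both plates and the highest had 638 and 165.4 CPM. Reads of Kcnip2 were present in 7 of 16 and 3 of 13 of these nuclei.

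The Kv4 pore genes differed in the same crossed way. Kcnd3 was at 312.7 CPM (294.1 to 332.1) and 154.2 CPM (139.9 to 169.5) in interneuron-like nuclei of the Slc32a1-Cre and Oprm1-Cre plates, against 23.2 and 22.7 CPM in SPN-like nuclei. Its log2 ratios were 3.49 and 2.52, with reads in 12 of 16 and 10 of 13 interneuron-like nuclei. Without the nucleus with the most reads, a setting chosen after the data were seen, they were 3.23 and 1.72. Kcnd2 was at 133.8 CPM (121.8 to 146.7) and 176.8 CPM (161.6 to 193.2), against 440.1 and 368.6 CPM, log2 ratios of -1.68 and -1.04. In the Kv1 family, Kcna4 was at 20.4 CPM (15.9 to 25.9) against 350.8 CPM on the Slc32a1-Cre plate, a log2 ratio of -3.81. On the Oprm1-Cre plate it was at 169.6 CPM (154.7 to 185.7) against 295.4 CPM, a smaller log2 ratio of -0.78, and 1 nucleus held 33.3% of those interneuron-like reads.

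Both DPP-like genes were higher in interneuron-like nuclei. Dpp6 was at 586 CPM (561 to 613) and 552 CPM (524 to 580.0) on the Slc32a1-Cre and Oprm1-Cre plates against 216.2 and 222.3 CPM in SPN-like nuclei, log2 ratios of 1.42 and 1.29, with reads in 15 of 16 and 11 of 13 nuclei. Dpp10 was at 168.8 CPM (155.2 to 183.2) and 149.5 CPM (135.5 to 164.6) against 46.6 and 28.7 CPM, log2 ratios of 1.75 and 2.20, with reads in 9 of 16 and 8 of 13 nuclei. Dpp6 was thus read in nearly every interneuron-like nucleus and Dpp10 in fewer.

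Kcnip4 differed in direction between the plates. It was at 217.3 CPM (201.9 to 233.6) in interneuron-like nuclei of the Slc32a1-Cre plate against 72.8 CPM in SPN-like nuclei, and at 3.59 CPM (1.72 to 6.61) against 61.7 CPM on the Oprm1-Cre plate, where its interneuron-like level rests on 10 reads. Kcnip3 had a log2 ratio of 0.06 on the Slc32a1-Cre plate, which became -0.32 without the nucleus with the most reads, and of -0.91 on the Oprm1-Cre plate.

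The interneuron-like nuclei formed 2 clusters, 1 of 21 nuclei led by Kit, Trh, Gal, Nxph1 and Th, and 1 of 8 nuclei led by Npy, Sst and Hhip. Sst, which encodes somatostatin, was between 9731 and 32697 CPM in the nuclei of the second and at most 61.8 CPM in those of the first. The plates held unlike nuclei within the first cluster. Th, which encodes tyrosine hydroxylase, was read in 10 of 10 Oprm1-Cre and 4 of 11 Slc32a1-Cre nuclei of it, and Pvalb, which encodes parvalbumin, in 0 and 6. The part of this makeup in the values of either plate was not tested. These clusters were formed with Kcnd3, Kcnip1 and Dpp10 among the genes used, so the values are a description. Kcnd3 was at 320.2 CPM in the Kit- and Th-led cluster and 35.1 CPM in the Npy- and Sst-led cluster, with reads in 19 of 21 and 3 of 8 nuclei. Kcnip1 was at 305.4 and 35.1 CPM, with reads in 15 of 21 and 1 of 8 nuclei. The high levels of both thus lay in the Kit- and Th-led cluster. Dpp6 was at 695 and 246.9 CPM and Kcnip4 at 166.5 and 1.76 CPM.

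Kcnd2 had the opposite order, at 64.5 CPM in the Kit- and Th-led cluster and 384.4 CPM in the Npy- and Sst-led cluster, where 5 of 8 nuclei had reads and 1 held 42.01% of them. That level was near the 440.1 and 368.6 CPM of SPN-like nuclei of the Slc32a1-Cre and Oprm1-Cre plates. Dpp6, at 246.9 CPM in the Npy- and Sst-led cluster, was likewise near its SPN-like 216.2 and 222.3 CPM. Kcnd3 was the higher Kv4 gene per exonic kilobase in 15 of 21 nuclei of the first cluster and 2 of 8 of the second. Kcnd3, Kcnip1 and Dpp6 were read together in 13 of 21 nuclei of the first cluster (61.9% (38.4 to 81.9)), in 0 of 8 of the second, and in 0 of 300 Oprm1-Cre D1-like nuclei. Taken as 3 counts of the total, 0 of 300 allows a share of up to 1.0%.

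**Figure D3:**
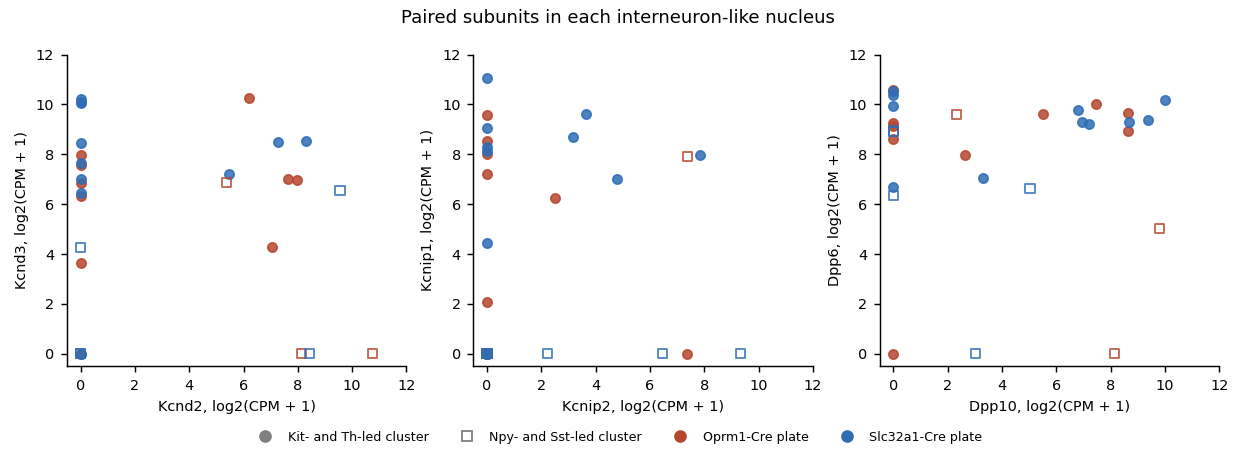
Paired subunit genes in each interneuron-like nucleus, both axes as log2(CPM + 1), with filled circles for the Kit- and Th-led cluster, open squares for the Npy- and Sst-led cluster, the Oprm1-Cre plate in red and the Slc32a1-Cre plate in blue. In the first cluster 19 of 21 nuclei had reads of Kcnd3 and 7 of 21 of Kcnd2, and 15 of 21 had reads of Kcnip1 and 6 of 21 of Kcnip2.

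Between D1-like and D2-like nuclei the pooled levels of few members differed past the limit. On the Slc32a1-Cre plate 8 members were measured, of which 0 were higher and 2 lower in D1-like nuclei, against 25.1% of all measured genes (14.8% higher and 10.3% lower), close to the share of the members, so the count is not a result about them. Kcnd3 was at 11.7 CPM (10.6 to 12.8) in D1-like and 31.2 CPM (29.2 to 33.2) in D2-like nuclei, a log2 ratio of -1.12, with reads in 10.3% (6.38 to 15.4) and 16.1% (10.6 to 23.01). Dpp10 was at 35.5 CPM (33.6 to 37.6) and 56.9 CPM (54.2 to 59.7), a log2 ratio of -0.61, with reads in 20% (14.6 to 26.3) and 26.8% (19.9 to 34.7). Both pairs of share intervals overlapped. The shares with a read of Kcnd2 did not, at 88.7% (83.4 to 92.8) of D1-like and 74.5% (66.7 to 81.3) of D2-like nuclei, nor did they at 50000 reads, 84.02% (78.1 to 88.9) and 69.8% (61.7 to 77.04), while its pooled log2 ratio was 0.15. Leaving out the nucleus with the most reads of the gene, an alternative chosen after the data were seen, gave -0.87 for Kcnd3 and -0.43 for Dpp10, the latter inside the limit.

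The other measured members differed by 0.00 (Kcnip3) to 0.27 (Dpp6). Kcnip2 was at 478 CPM (471 to 486) in D1-like and 432 CPM (424 to 439) in D2-like nuclei, at medians of 383.4 and 263.2 CPM. Kcnd2 was at 462 CPM (455 to 469) and 416 CPM (409 to 423), at medians of 325.8 and 280.3 CPM. Each range over nuclei began at 0 in both types.

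On the Oprm1-Cre plate, with 24 D2-like nuclei, 1 of 8 measured members was higher and 2 were lower past the limit, against 49.7% of all measured genes (30.4% higher and 19.3% lower). Kcnd3 (20.8 against 36.8 CPM) and Dpp10 (17.97 against 57.7 CPM) were lower in D1-like nuclei, but 1 nucleus held 90.1% and 84.5% of their D2-like reads. Without the nucleus with the most reads their log2 ratios were 1.54 and 0.64 in place of -0.69 and -1.45. Kcnip4 was at 65.6 CPM (63.5 to 67.8) against 41.9 CPM (35.9 to 48.7), a log2 ratio of 0.59, and 0.48 without the D1-like nucleus with the most reads.

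Among the members, the widest ratio between patch-leaning and matrix-leaning D1-like nuclei was that of Kcnip3 on the Slc32a1-Cre plate. It was at 12.5 CPM (9.41 to 16.3) in patch-leaning and 106.3 CPM (102.7 to 110.02) in matrix-leaning nuclei, a log2 ratio of -2.67 at a percentile of 0.842 among measured genes. Single nuclei ranged from 0 to 164.1 CPM in the 26 patch-leaning and from 0 to 1020.2 CPM in the matrix-leaning nuclei. The shares with a read were 11.5% (2.45 to 30.2) and 51.5% (43.7 to 59.2). At 50000 reads per nucleus they were 12% (2.55 to 31.2) and 43.2% (35.6 to 51.02), and these intervals did not overlap. The log2 ratio was -0.84 between the 65 highest-scoring and 65 lowest-scoring nuclei, where the upper group also took in matrix-leaning nuclei. It was -4.36 with score limits at 1 and -1.

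The shares had the same order in the other 2 groups. Among Slc32a1-Cre D2-like nuclei Kcnip3 had 0 reads in the 9 patch-leaning nuclei and 101.1 CPM (97.4 to 104.9) in the 140 matrix-leaning nuclei, of which 49.3% (40.7 to 57.9) had reads. Against a floor of 3 reads over the patch-leaning group, the matrix-leaning level was 61.6-fold higher. That figure is for pooled reads and leaves out the spread over nuclei, so it is no lower bound for the difference. Taken as 3 counts of the total, 0 of 9 nuclei allows a share of up to 33.3%. Between the 50 highest-scoring and 50 lowest-scoring nuclei, where the upper group also took in matrix-leaning nuclei, the log2 ratio of Kcnip3 was -0.72 in place of -4.41. Among Oprm1-Cre D1-like nuclei it was at 90.1 CPM (87.05 to 93.3) in patch-leaning and 102.1 CPM (97.6 to 106.7) in matrix-leaning nuclei, a log2 ratio of -0.17, inside the limit. The shares there were 35.5% (28.6 to 42.7) and 49.5% (39.9 to 59.2), and at 50000 reads 31.02% (24.5 to 38.2) and 44.1% (34.7 to 53.9), with overlapping intervals. As a description over nuclei of 1 plate, the Spearman rho of Kcnip3 with the leaning score in D1-like nuclei at 50000 reads was -0.27 on the Slc32a1-Cre and -0.13 on the Oprm1-Cre plate.

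**Figure D4:**
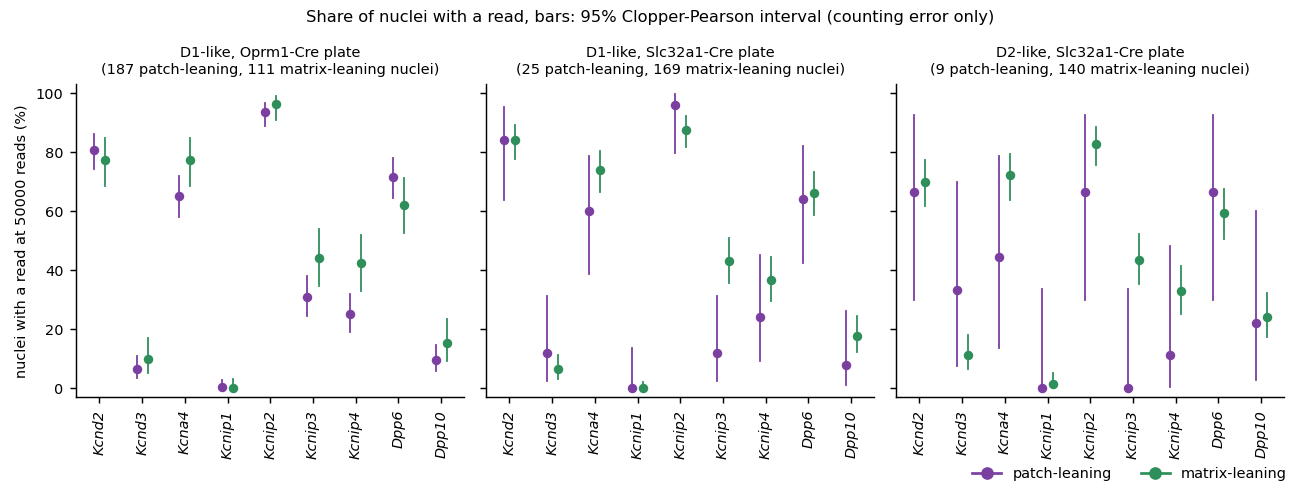
Share of patch-leaning (purple) and matrix-leaning (green) nuclei with a read of each gene after thinning to 50000 reads, in 3 groups of SPN-like nuclei, with exact Clopper-Pearson 95% bars that cover counting error only. Kcnip3 is lower in patch-leaning nuclei in each panel, at 31.02% against 44.1%, 12% against 43.2%, and 0 against 43.6%.

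Kcna4 had the same order of shares. In D1-like nuclei at 50000 reads they were 65.2% (57.9 to 72.04) and 77.5% (68.6 to 84.9) of patch-leaning and matrix-leaning nuclei on the Oprm1-Cre plate, with medians of 86.4 and 217.1 CPM. On the Slc32a1-Cre plate they were 60% (38.7 to 78.9) and 73.96% (66.7 to 80.4), with medians of 45.3 and 246.01 CPM. In Slc32a1-Cre D2-like nuclei Kcna4 was at 142.8 CPM (126.01 to 161.2) in the 9 patch-leaning and 336.8 CPM (330.1 to 343.7) in the matrix-leaning nuclei, a log2 ratio of -1.21. This was at a percentile of 30.6 among measured genes. Over the alternatives it ranged from -2.91 to -0.41, the latter inside the limit. The D2-like shares at 50000 reads were 44.4% (13.7 to 78.8) and 72.1% (63.9 to 79.4). The intervals of the D1-like and of the D2-like shares overlapped, and the pooled D1-like levels differed by -0.30 and -0.13, inside the limit.

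On the Oprm1-Cre plate 0 of 8 measured members were higher and 2 lower in patch-leaning D1-like nuclei past the limit, against 26.8% of all measured genes (13.1% higher and 13.7% lower), so their share was close to the background. Kcnd3 was at 16.97 CPM (15.6 to 18.4) in patch-leaning and 28.03 CPM (25.7 to 30.5) in matrix-leaning nuclei, a log2 ratio of -0.59, and Dpp10 at 14.6 CPM (13.3 to 15.9) in patch-leaning and 24.3 CPM (22.1 to 26.6) in matrix-leaning nuclei, a log2 ratio of -0.58. Without the nucleus with the most reads the ratios were -0.34 and -0.30, inside the limit. Kcnip4 was at 57.3 CPM (54.9 to 59.9) in patch-leaning and 80.9 CPM (76.99 to 85.05) in matrix-leaning nuclei, a log2 ratio of -0.46, and its shares at 50000 reads were 25.1% (19.1 to 31.98) and 42.3% (33.02 to 52.1), without overlap. Its D1-like shares on the Slc32a1-Cre plate were 24% (9.36 to 45.1) and 36.7% (29.4 to 44.4) and its log2 ratio was 0.25, or -0.36 without the nucleus with the most reads.

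Kcnip2 had the other order of levels in D1-like nuclei. It was at 734 CPM (725 to 743) in patch-leaning and 660.4 CPM (649 to 672) in matrix-leaning nuclei of the Oprm1-Cre plate, a log2 ratio of 0.15, at medians of 678 and 537 CPM. The Slc32a1-Cre log2 ratio was 0.19, at medians of 529 and 369.8 CPM. Both ratios were inside the limit, as were those of Dpp6, 0.16 and 0.20, the latter -0.04 without the nucleus with the most reads.

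In Slc32a1-Cre D1-like nuclei 1 of 8 measured members was higher and 3 were lower in those that leaned to patch, against 54.5% of all measured genes (22.3% higher and 32.2% lower). Besides Kcnip3, Dpp10 was at 12.99 CPM (9.82 to 16.9) in patch-leaning and 38.7 CPM (36.5 to 40.9) in matrix-leaning nuclei, a log2 ratio of -1.28. The patch-leaning reads came from 2 of 26 nuclei, 7.69% (0.946 to 25.1), against 21.9% (15.9 to 28.9) with a read among matrix-leaning nuclei, with overlapping intervals. Over the alternatives the Dpp10 ratio ranged from -2.01 to -0.43, the latter inside the limit. Kcnd2 was at 320.4 CPM (303.8 to 337.8) in patch-leaning and 482 CPM (474 to 489.5) in matrix-leaning nuclei, a log2 ratio of -0.58, with reads in 88.5% and 88.8%. This ratio was at a percentile of 29.3 among measured genes. Over the alternatives it ranged from -0.82 to -0.07, the latter inside the limit. Kcnd3 was at 33.9 against 8.59 CPM, but 1 patch-leaning nucleus held 79.5% of those reads, and without it the log2 ratio was -0.15 in place of 1.52.

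In Slc32a1-Cre D2-like nuclei 1 of 8 measured members was higher and 3 were lower in the 9 patch-leaning nuclei, against 72.1% of all measured genes (25.7% higher and 46.4% lower). Here the median of all measured genes was -0.36, and that of the members -0.03. Kcnip4 had 20 reads in the patch-leaning nuclei, 10.9 CPM (6.68 to 16.9), against 68.2 CPM (65.2 to 71.4) in the matrix-leaning nuclei, a log2 ratio of -2.20. The shares with a read were closer, 33.3% and 39.3%. Between the 50 highest-scoring and 50 lowest-scoring nuclei the Kcnip4 ratio was 1.57, the other direction. Kcnd3 had a log2 ratio of 0.84, and -0.20 without the nucleus with the most reads. Dpp10 had 0.12, and -1.54, past the limit, without the nucleus with the most reads. The 3 patch-leaning D2-like nuclei of the Oprm1-Cre plate had 2 reads of Kcnip3, and no ratio was taken from them.

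Between plates, 2 of 8 measured members were higher and 1 was lower in Oprm1-Cre than in Slc32a1-Cre D1-like nuclei, against 27% of all measured genes (14.9% higher and 12.1% lower). Kcnip2 was at 708 CPM (701 to 715) against 478 CPM (471 to 486), a log2 ratio of 0.56. Kcnd3 had a log2 ratio of 0.63, and 0.42 without the nucleus with the most reads. Dpp10 had a log2 ratio of -0.82. Kcnd2 and Kcna4, at -0.34 and -0.31, were inside the limit, and Kcnip3 was at 94.3 CPM (91.8 to 96.9) and 94.9 CPM (91.7 to 98.2).

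Because the plates held unequal shares of patch-leaning nuclei, the comparison was repeated within each leaning, a step chosen after the data were seen. Within matrix-leaning nuclei 1 of 8 measured members was higher and 1 was lower, against 33.9% of all measured genes (18% higher and 15.9% lower): Kcnd3 with 1.28 and Dpp10 with -0.58. Within patch-leaning nuclei 1 of 8 was higher and 2 were lower, against 55.5% of all measured genes (32.8% higher and 22.8% lower): Kcnip3 with 2.44, Kcnd3 with -0.82 and Kcnip4 with -0.58. Both lower ratios leaned on single Slc32a1-Cre nuclei. Without the nucleus with the most reads of the gene, Kcnd3 was at 7.2 in place of 33.9 CPM in Slc32a1-Cre patch-leaning nuclei. Kcnip4 was at 55.9 in place of 88.2 CPM. In Oprm1-Cre patch-leaning nuclei these genes were at 16.97 and 57.3 CPM. Kcnip2 had 0.49 and 0.45, just inside the limit. Patch-leaning D1-like nuclei of the plates thus had unlike Kcnip3 levels, 90.1 and 12.5 CPM, while the matrix-leaning ones were at 102.1 and 106.3 CPM.

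**Figure D5:**
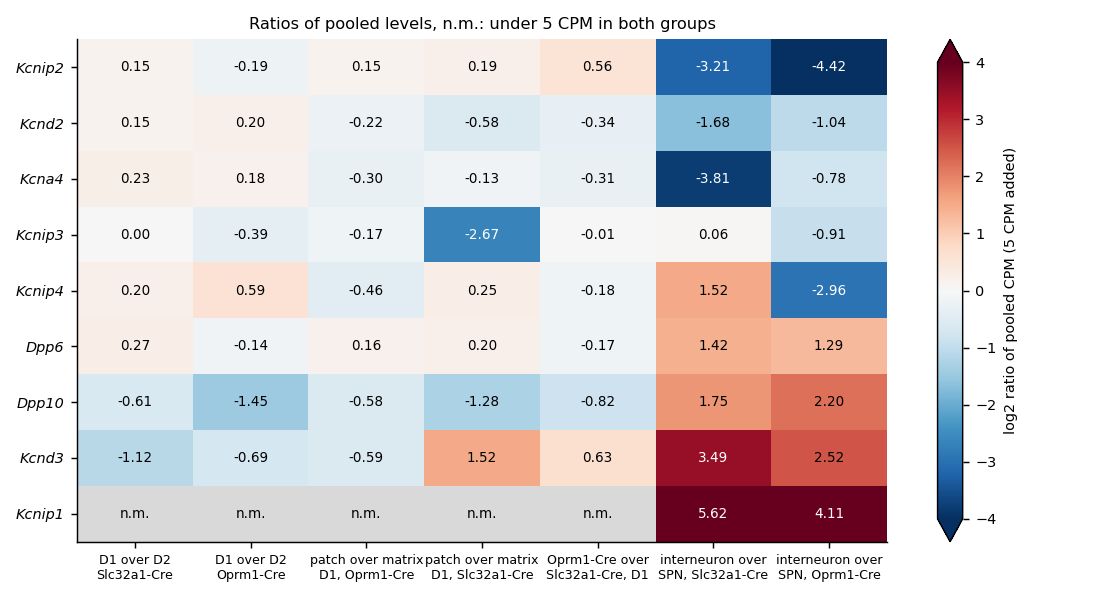
Log2 ratio of pooled CPM (5 CPM added) of each gene in the comparisons, red where the first-named group is higher and blue where it is lower, with grey cells (n.m.) where a gene was under 5 CPM in both groups. The interneuron columns run from -4.42 for Kcnip2 to 5.62 for Kcnip1.

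The other Kv alpha and beta subunit genes formed a list of 18. Between interneuron-like and SPN-like nuclei 7 of 17 measured genes were higher and 6 lower on the Slc32a1-Cre plate, with a list median of 0.12 beside -0.08 over all measured genes. On the Oprm1-Cre plate 6 of 17 measured genes were higher and 6 lower, with medians of -0.13 and -0.15. Of all measured genes 67.2% on the Slc32a1-Cre and 71.4% on the Oprm1-Cre plate were past the limit either way. Kcnc2, Kcnc4 and Kcna6 had the highest ratios on both plates. Kcnc2 encodes a Kv3 channel of fast-spiking cells and was at 279.5 against 9.60 CPM on the Slc32a1-Cre and 140.2 against 7.27 CPM on the Oprm1-Cre plate.

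Between D1-like and D2-like nuclei of that list 5 of 15 measured genes were higher and 1 lower on the Slc32a1-Cre plate, led by Kcnb2 (27.5 against 10.2 CPM). Of all measured genes 25.1% were past the limit there. Between patch-leaning and matrix-leaning D1-like nuclei 1 of 16 measured genes was higher and 4 lower on the Oprm1-Cre plate, against 26.8% of all measured genes past the limit. On the Slc32a1-Cre plate 6 of 15 measured genes were higher and 4 lower, against 54.5%. Kcnf1, a silent subunit that joins Kv2 channels, led on both, at 230.9 against 100.5 CPM and 290.98 against 82.5 CPM, log2 ratios of 1.16 and 1.76. Kcnc2 had the lowest ratios, -1.46 and -1.85.

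The other 6 neuronal calcium sensor genes are relatives of the KChIP genes. Between interneuron-like and SPN-like nuclei 3 of 6 measured genes were higher and 2 lower on the Slc32a1-Cre plate and 2 of 6 measured genes were higher and 3 lower on the Oprm1-Cre plate. Vsnl1, which encodes visinin-like protein, was at 419.8 against 9.82 CPM and 131.5 against 21.9 CPM, and Hpca, which encodes hippocalcin, at 230.6 against 1196 CPM and 295.1 against 856 CPM. Of the other 4 dipeptidyl peptidase genes 0 of 3 measured was higher and 2 lower on the Slc32a1-Cre plate, and 1 of 4 was higher and 1 lower on the Oprm1-Cre plate. The counts of both lists stand beside 67.2% and 71.4% of all measured genes past the limit on the Slc32a1-Cre and Oprm1-Cre plates.

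The promoters of Kcnd2 and Kcnd3 are shown because these paralogues had opposite ratios between interneuron-like and SPN-like nuclei. The windows of 300 bases come from RefSeq starts (GRCm38.p6) and lie at chr6:21215096-21215395 and chr3:105451640-105451939 on the plus strand. The GENCODE gene starts given above, chr6:21215503 and chr3:105452330, lie downstream of these windows and outside them. Capitals mark GGGCGG on either strand.
Kcnd2: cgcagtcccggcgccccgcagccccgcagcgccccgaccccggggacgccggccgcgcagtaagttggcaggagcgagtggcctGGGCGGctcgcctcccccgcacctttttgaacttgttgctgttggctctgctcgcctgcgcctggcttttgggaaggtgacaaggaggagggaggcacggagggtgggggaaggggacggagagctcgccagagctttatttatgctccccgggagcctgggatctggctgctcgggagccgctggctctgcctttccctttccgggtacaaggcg
Kcnd3: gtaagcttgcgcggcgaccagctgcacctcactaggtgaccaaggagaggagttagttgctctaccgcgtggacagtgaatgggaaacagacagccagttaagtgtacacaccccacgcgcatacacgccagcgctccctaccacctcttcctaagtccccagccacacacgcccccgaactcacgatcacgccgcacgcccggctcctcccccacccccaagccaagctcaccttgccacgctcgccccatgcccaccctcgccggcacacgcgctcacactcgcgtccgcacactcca
GGGCGG was found 1 time in the Kcnd2 window and 0 times in the Kcnd3 window, and 35.7% of 32851 promoters hold it. G and C made up 68.7% and 64% of the bases, with 26 and 25 CpG dinucleotides, against medians of 52.7% and 7 over all promoters.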

How the data were processed

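The authors deposited raw read counts for each gene and well, with no molecular identifiers described, and their table of both plates was used. The submitters' processing notes name mm10, SAMtools and Seurat, and the labels' protocols name a column RNA kit and a stranded total RNA library kit. The aligner, the counter, the annotation and the use of strand were not stated there. Wells with at least 20000 reads and 1000 genes were kept. Nuclei were clustered with scanpy 1.11.5 and leidenalg 0.10.2 (Python 3.11.15, scipy 1.17.1) on 2000 variable genes, 30 components, 15 neighbours, resolution 1 and seed 1, and clusters were named from marker lists. D1-like or D2-like needed a score difference over 2 between 7 D1 and 7 D2 markers. No doublet caller was run, and 41 possible doublets were left out in 1 alternative.

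Reads were pooled per plate and class as CPM with exact Poisson 95% intervals. All intervals cover counting error only, since amplified reads are not separate molecules. Positions and exonic lengths came from GENCODE M21. The ratio step was run on Poisson counts simulated from the pooled Slc32a1-Cre D1-like profile. These held no spread between nuclei beyond counting and depth, so they do not show how ratios behave in the real nuclei. Alternatives changed the weighting, scaling, added CPM, depth, thinning, doublets, classes and score limits. All 9 members were named, and of the other lists up to 3 genes per direction with the widest ratios. The members, lists and markers were chosen with earlier results of these data known.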

Additional observations from a re-analysis of the deposited data

Results flagged for a closer look

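Kcnd3 differed in opposite directions between patch-leaning and matrix-leaning D1-like nuclei, with a log2 ratio of 1.52 on the Slc32a1-Cre plate and -0.59 on the Oprm1-Cre plate. The difference between the plates was not tested, and 1 nucleus held 79.5% of the patch-leaning Kcnd3 reads of the Slc32a1-Cre plate. Without the nucleus with the most reads the ratios were -0.155 and -0.337, of the same sign and both inside the limit.

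Kcnip4 differed in opposite directions between interneuron-like and SPN-like nuclei, with a log2 ratio of 1.52 on the Slc32a1-Cre plate and -2.96 on the Oprm1-Cre plate. This difference was not tested either. Kcnip4 had reads in 9 of 16 and 3 of 13 interneuron-like nuclei, and without the nucleus with the most reads the ratios were 1.08 and -2.85. In the Kit- and Th-led cluster Th was read in 10 of 10 Oprm1-Cre and 4 of 11 Slc32a1-Cre nuclei, and Pvalb in 0 and 6, and the part of this in the ratios was not tested.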

How the results depend on the processing

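For the 35 member ratios past the limit, 98.1% of the values under alternatives kept their sign and 91.7% kept it past the limit. These shares include values that could not change. Counting genes with at least 1 CPM as measured left these ratios as they were. Leaving out the Otof-led cluster removed no Oprm1-Cre D1-like nuclei. The count of members past the limit in D1-like over D2-like nuclei of the Oprm1-Cre plate was 1 in place of 3 after thinning to 50000 reads. For patch-leaning over matrix-leaning Oprm1-Cre D1-like nuclei it was 2, and became 4 with each nucleus weighed the same and 4 after thinning. It became 1 with at least 100000 reads, 1 with possible doublets left out and 1 with score limits at 1 and -1. On the Slc32a1-Cre plate it was 4 and became 2 between the 65 highest-scoring and 65 lowest-scoring D1-like nuclei. In D2-like nuclei it was 7 in place of 4 with limits at 1 and -1. Between the highest-scoring and lowest-scoring nuclei, 65 and 65 D1-like or 50 and 50 D2-like, the upper groups also took in matrix-leaning nuclei. There the ratio of Kcnd3 in D1-like nuclei became -0.15 and that of Kcnip4 in D2-like nuclei 1.57. Without the Otof-led cluster that of Kcnd3 in D2-like nuclei became -0.16. The cause was not tested.

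Without the nucleus with the most reads of the gene, a setting chosen after the data were seen, the counts became 1 in place of 2 (D1-like over D2-like, Slc32a1-Cre plate) and 0 in place of 2 (patch-leaning over matrix-leaning D1-like, Oprm1-Cre plate). They became 2 in place of 3 (D1-like over D2-like, Oprm1-Cre plate), 3 in place of 4 (patch-leaning over matrix-leaning D1-like, Slc32a1-Cre plate) and 2 in place of 3 (Oprm1-Cre over Slc32a1-Cre D1-like). In patch-leaning over matrix-leaning Slc32a1-Cre D2-like nuclei the count was 4 in both, with Dpp10 (-1.54) in place of Kcnd3. No share of all measured genes is given for this setting, so these counts are no result about the members. Of the 35 ratios past the limit, those that changed sign were Kcnd3 1.54 and Dpp10 0.64 (D1-like over D2-like, Oprm1-Cre plate), and Kcnd3 -0.15 and -0.20 (patch-leaning over matrix-leaning D1-like and D2-like, Slc32a1-Cre plate). Of the 31 measured ratios inside it, 8 changed sign. No paired analysis was possible because no test was made and well numbers pair no nuclei.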

Other observations

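Member genes also varied in SPN-like nuclei outside the D1-like and D2-like pattern. A cluster of 15 nuclei, 4 Oprm1-Cre and 11 Slc32a1-Cre, was led by Col24a1, Igfbpl1 and Otof, the last known as a marker of eccentric SPNs. Kcna4 was at 33.5 CPM in this cluster, with reads in 3 of 15 nuclei, whereas the 8 other SPN-like clusters ranged from 259.7 to 438 CPM. Kcnip2 was at 168.2 CPM with reads in 8 of 15 nuclei, against 421 to 764 CPM in the other SPN-like clusters. Dpp6 was at 458 CPM with reads in 13 of 15 nuclei, against 174.4 to 238.8 CPM, and 1 nucleus held 39.3% of its reads. These are pooled values of few nuclei with no test.

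The genes most like Kcnip2 across D1-like nuclei at 50000 reads were Rgs9, Camkk2 and Purb, with Spearman rho of 0.17 to 0.27 over both plates among 4582 candidates. Those most like Kcna4 were Slc7a14, Ercc4 and Sez6 (0.16 to 0.26). In counts this sparse such values are no finding, and rho among Kcnd2, Kcna4, Kcnip2 and Dpp6 themselves lay between -0.22 and 0.09.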
